A study of Homo sapiens with 8 samples.

Results

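Stromal and astromal culture were compared through H3K9ac, histone H3 acetylated at lysine 9, in spheroids of MIA PaCa-2, an established line of human pancreatic cancer cells. The comparison rests on 2 of the 8 libraries of the study, the astromal and the stromal H3K9ac ChIP-seq library, chosen by antibody and culture label. Their peak lists held 7141 and 20326 peaks, together 27467 of the 57049 peaks in the 4 lists of the study. In both settings single cells were seeded in a hyaluronan hydrogel cross-linked with PEGDA, kept overnight under medium with 10% fetal bovine serum and then grown in 2% serum, in which they formed spheroids. Astromal gels had water in place of the collagen-derived component Gelin-S and received plain DMEM. Stromal gels contained Gelin-S and received medium that immortalized myofibroblasts, grown out of surgically removed pancreatic tumours, had conditioned for 48 h. Gel component and medium differed together, so their parts in any difference cannot be told apart, and the stromal cells themselves were not in the gels. With 1 library per setting, differences between the settings have no replicate check and no p-value, and the intervals below (exact, 95%) cover counting error only.

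Acetylation of lysine 9 is placed by acetyltransferases such as KAT2A and KAT2B, is removed by deacetylases and sirtuins, and uses acetyl-CoA as its substrate. The mark sits on the nucleosomes that flank active start sites, mostly just downstream of a nucleosome-depleted stretch, and is read by proteins that help transcription begin and elongate. Housekeeping genes with CpG-rich promoters generally carry it in most cell types, whereas developmental and immune genes carry it in few.

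A level below is the authors' tag count of a peak, normalised to 10000000 tags of its library. The peaks of a list had a fixed width, 201 bp astromal and 211 bp stromal, so levels of different genes refer to almost equal lengths. A promoter was counted in a list when a peak centre lay within 1 kb of the start site (TSS), and its level was that of its highest such peak. Depth was estimated at 3923202 astromal and 7569791 stromal tags, of which 1.76% and 5.81% lay in peaks. The median peak held 9 tags (level 22.9) in the astromal and 20 tags (level 26.4) in the stromal list. A list holds only what the caller passed, so a promoter absent from the list with the lower depth was not measured as unacetylated. In chromatin from many cells, fewer acetylated cells and less mark per cell cannot be told apart.

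To show the sequences behind the 3 groups described below, 9 promoters are printed, each as the 250 bases before a RefSeq start site in build GRCh38.p14, read 5′ to 3′ on the strand of the gene. Capitals mark every match, on either strand, to any of 9 short strings. GGGCGG is the core of GC boxes, which SP and KLF factors bind. The string CCGGAAG is bound by ETS factors and GCCAAT by the nuclear factor Y complex. GCATGCGC is the core site of NRF1, and TGACGTCA is the response element of CREB (CRE). The string TGACTCA is recognised by AP-1 dimers of JUN and FOS. CACGTG is the E-box of the MYC network, AAGATGGC is bound by YY1, and TATAAA is the usual form of TATA boxes. No string contains another. In 22196 such windows of coding genes these letters were present in 53.7%, 10.7%, 15.5%, 3.26%, 2.01%, 3.45%, 7.38%, 1.38% and 9.01%, in that order. A match describes letters and not a bound site. The first 3 promoters stand for those high in both lists: EIF4A2, an RNA helicase of translation initiation (chr3:186783327-186783576, plus strand), YARS2, the mitochondrial tyrosyl-tRNA synthetase (chr12:32755898-32756147, minus strand), and PPP1R15A, which directs a phosphatase to the initiation factor eIF2 (chr19:48872171-48872420, plus strand). The next 3 stand for those high in the stromal list and absent from the astromal one: TTC1, an adaptor protein (chr5:160008889-160009138, plus strand), HS2ST1, a sulfotransferase of heparan sulfate (chr1:86914385-86914634, plus strand), and MLLT6 (chr17:38705023-38705272, plus strand). The last 3 were in the astromal list only: CDKN1B, an inhibitor of cyclin-dependent kinases (chr12:12717118-12717367, plus strand), HEXIM1, an inhibitor of transcription elongation (chr17:45148225-45148474, plus strand), and TMSB4X, an actin-sequestering thymosin (chrX:12974860-12975109, plus strand).
EIF4A2: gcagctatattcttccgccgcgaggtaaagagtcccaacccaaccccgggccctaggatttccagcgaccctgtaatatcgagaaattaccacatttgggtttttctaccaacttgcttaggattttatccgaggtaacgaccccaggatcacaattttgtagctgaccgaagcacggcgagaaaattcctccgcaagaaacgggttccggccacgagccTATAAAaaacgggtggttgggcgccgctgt
YARS2: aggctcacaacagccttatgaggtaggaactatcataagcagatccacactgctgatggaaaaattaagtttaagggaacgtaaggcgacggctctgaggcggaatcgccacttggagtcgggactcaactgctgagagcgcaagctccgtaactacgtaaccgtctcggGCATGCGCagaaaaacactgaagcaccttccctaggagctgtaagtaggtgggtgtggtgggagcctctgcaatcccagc
PPP1R15A: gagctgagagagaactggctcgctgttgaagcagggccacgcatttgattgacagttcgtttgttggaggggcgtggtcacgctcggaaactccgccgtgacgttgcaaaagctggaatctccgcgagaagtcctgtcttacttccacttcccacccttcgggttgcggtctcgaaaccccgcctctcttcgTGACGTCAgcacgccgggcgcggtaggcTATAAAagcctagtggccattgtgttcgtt
TTC1: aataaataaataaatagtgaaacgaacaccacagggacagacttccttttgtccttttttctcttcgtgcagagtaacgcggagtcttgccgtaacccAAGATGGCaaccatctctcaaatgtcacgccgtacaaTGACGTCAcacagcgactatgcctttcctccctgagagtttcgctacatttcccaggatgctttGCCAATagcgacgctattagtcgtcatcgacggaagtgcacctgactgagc
HS2ST1: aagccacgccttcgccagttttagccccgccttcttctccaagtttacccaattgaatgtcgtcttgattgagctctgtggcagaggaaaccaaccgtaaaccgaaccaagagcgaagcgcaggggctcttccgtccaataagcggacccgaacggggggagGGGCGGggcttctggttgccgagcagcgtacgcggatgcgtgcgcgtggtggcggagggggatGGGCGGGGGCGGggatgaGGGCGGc
MLLT6: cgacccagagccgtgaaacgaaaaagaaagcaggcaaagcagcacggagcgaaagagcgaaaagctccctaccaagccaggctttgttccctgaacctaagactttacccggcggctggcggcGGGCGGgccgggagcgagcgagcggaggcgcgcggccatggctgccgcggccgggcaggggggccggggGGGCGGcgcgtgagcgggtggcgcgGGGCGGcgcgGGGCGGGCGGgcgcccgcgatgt
CDKN1B: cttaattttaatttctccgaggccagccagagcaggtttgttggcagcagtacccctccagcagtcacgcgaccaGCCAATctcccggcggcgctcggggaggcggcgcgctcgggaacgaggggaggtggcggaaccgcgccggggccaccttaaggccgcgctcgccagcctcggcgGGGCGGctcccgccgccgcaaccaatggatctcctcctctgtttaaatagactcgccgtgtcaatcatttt
HEXIM1: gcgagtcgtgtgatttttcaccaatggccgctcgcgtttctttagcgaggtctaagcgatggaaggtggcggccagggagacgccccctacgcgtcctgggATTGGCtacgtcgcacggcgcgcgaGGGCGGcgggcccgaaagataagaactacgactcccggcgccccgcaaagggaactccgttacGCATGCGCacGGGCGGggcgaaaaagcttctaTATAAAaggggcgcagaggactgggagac
TMSB4X: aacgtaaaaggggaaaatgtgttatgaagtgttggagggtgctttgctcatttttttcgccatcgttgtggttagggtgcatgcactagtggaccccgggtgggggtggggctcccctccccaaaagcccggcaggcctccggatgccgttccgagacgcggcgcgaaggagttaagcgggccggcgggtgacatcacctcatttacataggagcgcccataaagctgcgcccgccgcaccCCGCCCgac
GC boxes were the most frequent letters in this set, with 4 matches at HS2ST1 and 5 at MLLT6, whereas YARS2, PPP1R15A, EIF4A2 and TTC1 had none. The TTC1 window, which has no GC box, held 1 match each to the CCAAT box, the CRE and the YY1 site. PPP1R15A, a gene induced in the integrated stress response, had 1 CRE and 1 TATA box, and EIF4A2 had 1 TATA box near its start site.

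The cells were checked against marker genes. Of 19 ductal and epithelial markers, 10 had H3K9ac at the promoter in at least 1 list, 52.6% beside 49.1% of all coding genes. KRT18, a keratin of simple epithelia, had levels of 25.5 (astromal) and 26.4 (stromal), the mucin gene MUC1 40.8 and 44.9, and the ductal factor SOX9 20.4 and 19.8. No peak was assigned to EPCAM, CDH1, KRT7 or GATA6 in either list. CLDN4 (17.8) and ESRP2 (20.4) appeared in the astromal list only, both with a stromal peak 1073 to 1748 bp from the start site. More of the 19 were in the stromal list only, 5 (26.3%) beside 22.9% of all coding genes. These were CTNNB1 (38.3), KRT8 (26.4), FOXA1 (19.8), KRT19 (14.5) and TJP1 (13.2). Of 10 mesenchymal markers, 4 were in the stromal list and none in the astromal one, where 22.9% of all coding genes were in the stromal list only: VIM, the intermediate filament vimentin, at 51.5, SNAI1 at 47.6, S100A4 at 21.1 and LOXL2 at 19.8, while ZEB1, CDH2 and FN1 had no assigned peak. VIM did have an astromal peak of level 30.6 at 1604 bp from its start site. Few stromal promoters at the levels of S100A4 and LOXL2 had an astromal peak, 15.7% of those between 17.2 and 22.5. Of 15 fibroblast and stellate cell markers, RGS5 was in both lists (22.9 and 29.1). COL1A2 (30.4), COL1A1 (17.2) and ACTA2 (14.5) were in the stromal list only. These 3 of 15 are a smaller share than the 22.9% of all coding genes in the stromal list only. FAP, PDGFRB, DCN, LUM, THY1, POSTN and COL3A1 had no peak. None of 14 acinar and islet markers or 12 blood and endothelial markers had a promoter peak. CDKN2A and MTAP, which this line is known to have lost, had none either.

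Of 10640 placed protein-coding genes, 5233 (49.2%) had promoter H3K9ac in both lists, 4611 (43.3%) had it in stromal spheroids alone and 37 (0.348%) in astromal spheroids alone, and 759 (7.13%) had a peak nearby but none within 1 kb. Promoters in both lists had a median stromal level of 39.6, against 25.1 for those in the stromal list only. Within this window few promoters were in the astromal list alone, and those in the stromal list alone had lower levels. With a 200 bp window, 923 promoters were in both lists and 602 in the astromal list only, and the astromal-only number was 78 to 95 at a stricter level, with stromal tags thinned to the astromal depth or with the deposited nearest gene.

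Whether a stromal promoter was also in the astromal list went with its level over the whole range. When the stromal promoters were divided into 10 bins by level, 52 of 984 (5.28%, 3.97 to 6.87) were also astromal in bin 1, at levels of 10.6 to 17.2. The share was 48.4% (45.3 to 51.6) in bin 5 and 79.6% in bin 8. In bin 10, at levels of 51.5 to 128.1, it was 937 of 985 (95.1%, 93.6 to 96.4), which left 48 promoters (4.87%) without an astromal peak. Ranked the other way, 98.7% to 99.8% of each astromal bin was in the stromal list. The unmatched promoters were thus nearly all on the stromal side, and most had low levels.

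**Figure D1:**
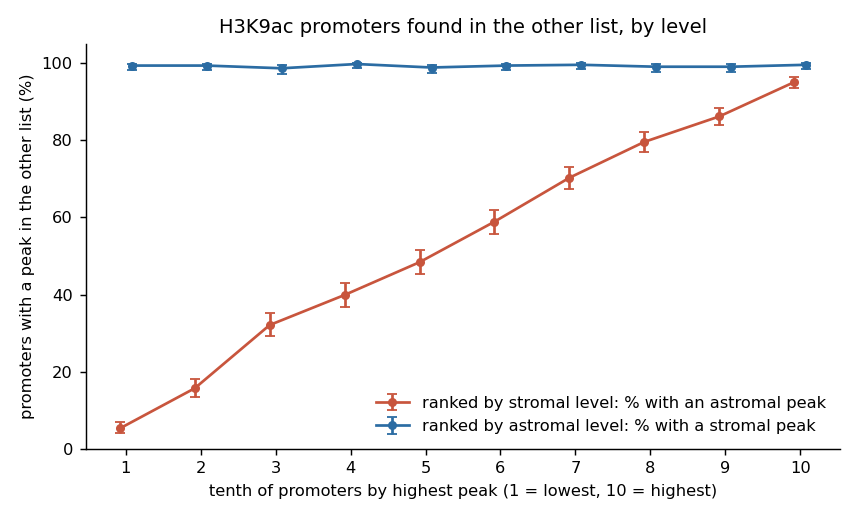
Share of promoters with an H3K9ac peak in the other list (y, percent, with exact 95% intervals) against the bin of their highest peak in their own list (x, 1 lowest to 10 highest). Stromal promoters rise from 5.28% to 95.1% across the bins, and astromal promoters stay between 98.7% and 99.8%.

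Promoters that were high in both settings included genes of translation, RNA processing and mitochondria. Ranked by the weaker of their 2 ranks, the first was KMT2E, a chromatin regulator of the KMT2 family. Its level was 71.4 in astromal (28 tags) and 117.6 in stromal spheroids (89 tags). The stromal peak, at chr7:104653749-104653959 (hg19), was 734 bp from a start site and was assigned to the non-coding gene KMT2E-AS1, which has the same levels. The peaks nearest to the KMT2E start site had 40.8 (astromal) and 70.0 (stromal). C7orf55, which encodes an assembly factor of the ATP synthase, had 66.3 and 114.9. The BDH1 promoter, of the mitochondrial enzyme that interconverts ketone bodies, had 56.1 and 100.4. All 3 were higher in the stromal list, by about the amount typical of promoters in both lists.

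YARS2 had the highest stromal level of any coding promoter, 128.1 (97 tags) against 56.1 astromal (22 tags), in an exonic peak at chr12:32908515-32908725. EIF4A2, by contrast, was nearly equal in both, at 73.9 and 81.9, and its astromal level was the highest among coding promoters in that list. PPP1R15A had 56.1 and 85.9 in a peak annotated to its 5′ UTR. GART, a purine synthesis enzyme, had 53.5 and 92.5. The cytosolic alanyl-tRNA synthetase AARS had 53.5 and 85.9. Splicing regulators followed, SRSF6 with 56.1 and 81.9 and TRA2B with 53.5 and 84.5. The remaining named promoters of this group were COQ10B (58.6 and 84.5), BAZ2B, a bromodomain protein (58.6 and 81.9), DNTTIP2 (56.1 and 80.6), ENOSF1 (51.0 and 81.9) and MEPCE, an RNA-capping enzyme (51.0 and 84.5). In all 15 the stromal level was above the astromal one, and none was called different once the general shift between the lists, described below, was taken off.

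**Figure D2:**
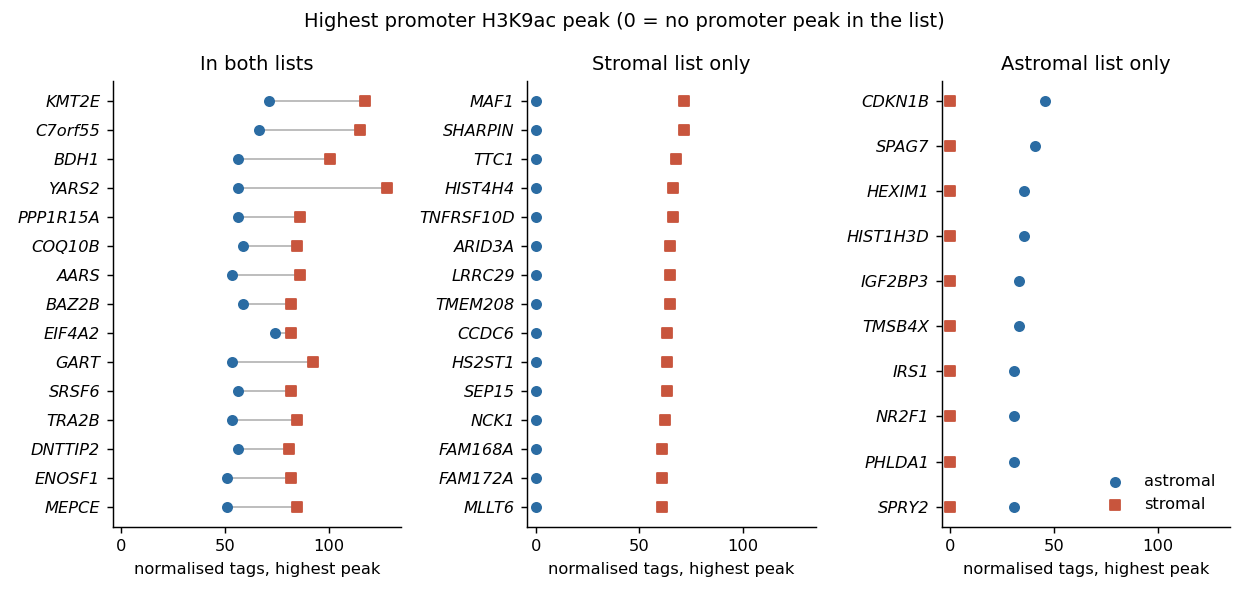
Level of the highest promoter H3K9ac peak (x, normalised tags) for the named genes (y), in panels for promoters held by both lists and by either list alone, with circles for the astromal and squares for the stromal library. A symbol at 0 means that no promoter peak is in that list, and the stromal symbol lies to the right for all 15 genes in both lists.

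The 48 promoters of bin 10 that had no astromal peak are those for which low stromal level goes least with their absence. They encoded proteins of varied roles. MAF1, a repressor of RNA polymerase III, and SHARPIN, a subunit of the linear ubiquitin ligase, share a promoter whose highest peak reached 71.3 (54 tags). TTC1 had 67.4 (51 tags) in an intronic peak at chr5:159436240-159436450, and the nearest astromal peak was 409920 bp away. The histone gene HIST4H4 and the decoy death receptor gene TNFRSF10D had 66.1 each. For comparison, the highest level of any coding promoter in the astromal list was 73.9.

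ARID3A, a DNA-binding factor, had 64.7, as did LRRC29 and TMEM208 at their shared promoter. CCDC6, a coiled-coil protein gene that is a fusion partner of RET in thyroid cancer, had 63.4, with the nearest astromal peak 1520652 bp away. HS2ST1 and the selenoprotein gene SEP15 shared a peak of 63.4. The adaptor NCK1, which links receptor tyrosine kinases to actin, had 62.1, and FAM168A, FAM172A and MLLT6 had 60.8 each. Lower in the group were PAK2, a kinase downstream of RAC and CDC42 (59.4), the corepressor BCOR (58.1), the sheddase ADAM17 (56.8), the kinase WNK1 (56.8), GPRC5A (55.5), the cytokine receptor LIFR (52.8) and CPT2 (52.8), which imports long-chain fatty acids into mitochondria. RPS23 (52.8), NUP153 (51.5) and VIM (51.5) closed the range. Several share a promoter with a neighbour, among them AKIP1 with ST5, RPS23 with ATP6AP1L and NAIF1 with SLC25A25, so the 48 genes are fewer independent sites.

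Of the 48, 8 had an astromal peak within 5 kb of the start site, such as HIST4H4 at 2651 bp and BCOR at 1388 bp, and 43 still had none when the window was widened to 2.5 kb. With the stromal tags thinned to the astromal depth, a setting that gave 70 such promoters, 31 of the 48 were among them. Ranking promoters by summed peaks instead kept 20 of the 48 among 69.

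Promoters in the astromal list only were few and rested on 7 to 18 tags. CDKN1B led with 45.9 (18 tags), in a peak annotated to the 5′ UTR at chr12:12870538-12870738, and its nearest stromal peak was 20756 bp away. HEXIM1, at 35.7 (14 tags), had its nearest stromal peak at 14044 bp, TMSB4X, at 33.1, at 9877 bp, PHLDA1, at 30.6, at 51771 bp, and SPRY2, a feedback inhibitor of receptor tyrosine kinase signalling, at 30.6, at 209284 bp. For these 5 the stromal list held nothing close to the promoter.

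Others had a stromal peak just outside the window. SPAG7 had 40.8 astromal and a stromal peak of 52.8 at 1086 bp. IRS1, the insulin receptor substrate, had 30.6 and a stromal peak of 29.1 at 1577 bp. The nuclear receptor gene NR2F1 had 30.6 and a stromal peak of 55.5 at 2977 bp, and the RNA-binding protein gene IGF2BP3 33.1 and one of 51.5 at 3348 bp. HIST1H3D had 35.7, with a stromal peak at 5490 bp. In all, 24 of the 37 had a stromal peak within 5 kb of the start site and 14 within 1500 bp. The group also held KLF6 (28.0), with a stromal peak at 1649 bp, and the developmental gene HOXA11 (20.4), with one at 1136 bp. The nearest stromal peak was farther away for the desaturase gene SCD (22.9, 26101 bp). The same held for the developmental genes NR2F2 (22.9, 21265 bp) and HOXB2 (22.9, 10048 bp).

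Levels at the 5233 promoters in both lists were higher in stromal spheroids almost throughout, with a median log2 ratio of 0.69 (a 1.61-fold difference, quartiles 0.39 and 0.96), and the stromal level was the higher in 93.5%. Taking this shift off, 11 promoters (0.210%) were higher and 35 (0.669%) lower in stromal spheroids by at least 2-fold with an interval that left out 0. A 95% interval can leave out the centre by counting error in up to 5% of promoters, more than either share called, so the genes named next are the ends of the distribution and not established changes.

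At the upper end stood TLDC1, at 15.3 astromal (6 tags) and 67.4 stromal (51 tags), 1.45 above the shift on the log2 scale (0.23 to 2.96). RINT1, a vesicle tethering gene, followed with 17.8 and 74.0 (1.36), then MAU2, a cohesin loader, and SUGP1 at their shared promoter with 17.8 and 71.3 (1.31). Over the highest pair of overlapping peaks their value was 0.19, and 8 of the 10 higher and 19 of the 30 lower promoters with such a pair kept their call. EIF3B, a subunit of the translation initiation factor eIF3, had 22.9 and 83.2 (1.17). SUV39H2, a histone H3 lysine 9 methyltransferase, had 20.4 and 70.0 (1.09). HERC4 (1.20), RSAD1 (1.20), RANBP3 (1.17) and KLHL24 (1.03) were also among the 11. All 11 were in stromal bin 10 and held 6 to 9 tags in their highest astromal peak.

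At the lower end TGIF1, a corepressor of TGF-beta signalling, stood apart with 45.9 astromal (18 tags) and 15.9 stromal (12 tags), -2.22 relative to the shift (-3.41 to -1.09). The antiproliferative gene BTG1 had 33.1 and 21.1 (-1.34). LDHA, lactate dehydrogenase A, had 35.7 and 25.1 (-1.20), and CDT1, which loads the replicative helicase, 53.5 and 42.3 (-1.03). A lower call lies at least 2-fold below a shift of 0.69, so it requires an astromal level above the stromal one. All 35 promoters called lower therefore had this by rule. CREB5 (-1.11), S100A11 (-1.11), TRPM7 (-1.17), PHIP (-1.14), SEC23B (-1.18) and the chaperone gene DNAJB11 were among the rest.

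Only 80 promoters had at least 20 tags in the highest peak of each list, and their median difference was 0.39. YARS2 had the highest ratio of these (0.50 above the general shift), followed by NBPF1 (0.21). The lowest were CYB561A3 with TMEM138 (-1.17), CCDC40 with TBC1D16 (-1.12), SPATA33 (-1.03), CDT1, C2orf43 and EIF5 (-0.87 each for the last pair) and the complex I gene NDUFA10 (-0.81). When peaks were summed over each promoter, 203 promoters were higher and 218 lower, and 7 of the 11 higher and 17 of the 35 lower calls were kept. CDT1 was then at 0.07 and SUV39H2 at -0.24, so the direction of both rested on the choice of the highest peak. The calls of EIF3B (0.84), HERC4 (0.87), BTG1 (-0.14), TRPM7 (-0.49), PHIP (-0.59), S100A11 (-0.68) and SPATA33 (-0.51) were lost with sums, whereas TGIF1 was at -3.47.

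The stromal list also held more peaks per promoter. Its library had the higher depth and more tags per peak, and peak numbers were not compared at equal depth. Whether the mark itself was wider was therefore not tested. At promoters in both lists the mean was 1.24 astromal and 1.75 stromal peaks. The stromal list had more peaks at 2580 of the 5233 (49.3%), the same number at 2424 (46.3%) and fewer at 229 (4.38%). The widest differences were at DPYSL2 and FOXN3, each with 1 astromal and 5 stromal peaks, and at HSP90AA1, the inducible cytosolic chaperone, with 2 and 5. At FOXN3 the highest peak differed little (33.1 and 42.3), while the sum over peaks was 33.1 against 125.5. DCAF11, MGAT1 and ATP1B3, the last a subunit of the sodium pump, had 1 astromal and 4 stromal peaks. Of the 14915 stromal peaks without an astromal partner, 24.7% lay at promoters that the astromal list held too, 44.5% at promoters it did not hold and 30.8% at no coding promoter. Of the 1730 astromal peaks without a stromal partner, 75.5% lay at promoters in both lists.

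Peaks of every kind lay mainly downstream of the start site. Among shared peaks, 60.0% were within 1 kb downstream and 27.7% within 1 kb upstream. For peaks in the stromal list only the shares were 45.6% and 26.8%, and for astromal-only peaks 54.6% and 26.3%. In all 3 kinds the fullest 100 bp lay 100 to 200 bp downstream, and it held 15.7% of shared, 8.87% of stromal-only and 10.1% of astromal-only peaks. Shared peaks were thus packed more closely just downstream of the start site than the other kinds. Centres of overlapping peaks differed by a median of 59 bp between the lists.

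**Figure D3:**
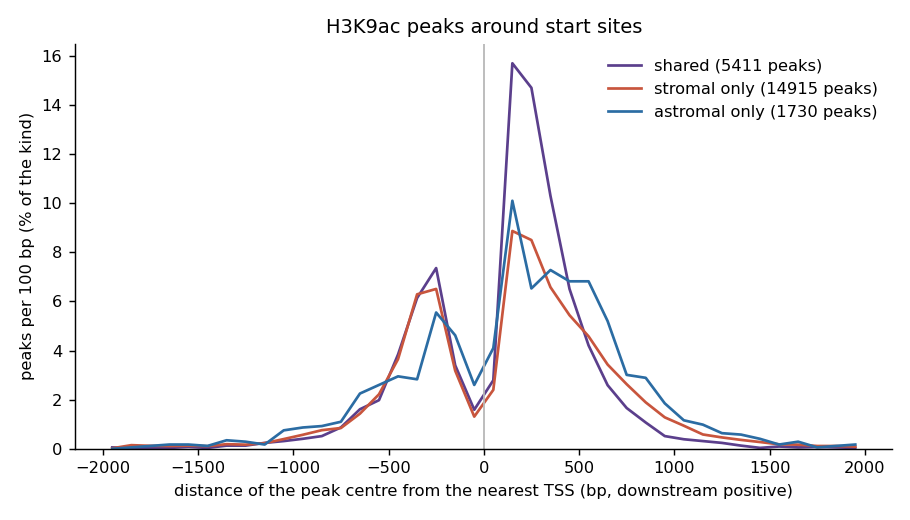
Share of peaks per 100 bp (y, percent of the peaks of a kind) by distance of the peak centre from the nearest start site (x, bp, downstream positive). Shared peaks reach 15.7% in the fullest bin downstream of the start site, above stromal-only (8.87%) and astromal-only peaks (10.1%), and all 3 kinds dip at the start site itself.

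Away from promoters, 6.75% of shared and 16.7% of stromal-only peaks were over 10 kb from a start site. Among stromal peaks at levels of 40 or more, the share also in the astromal list was 66.7% at promoters, 58.5% at 1 to 10 kb and 68.6% (61.1 to 75.5) over 10 kb, and under 20 it was 5.85%, 2.44% and 2.97%. At 20 to 30 it was 18.8% at promoters and 13.7% (11.3 to 16.4) over 10 kb. At 30 to 40 it was 40.4% and 29.9% (25.1 to 35.2). At the highest levels distant sites were therefore in both lists about as often as promoters, and at all lower levels less often. Among the strongest distant shared peaks were those nearest to EZH2 (43.3 astromal and 80.6 stromal), HSPB1 (20.4 and 75.3), CROCC (51.0 and 71.3) and GNGT2 (25.5 and 70.0). In the stromal list only, the strongest were nearest to CROCC (97.8), ZNF786 (77.9), MIR5188 (66.1) and DYNC1H1 (59.4). The stromal-only CROCC peak lay beside the shared one, at -16883 against -17423 bp from that gene's start site. Nearest is a matter of position, and no target was measured.

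The highest peak of both lists belonged to a non-coding RNA gene, LINC00910, at 170.8 astromal (67 tags) and 289.3 stromal (219 tags). Of 1051 placed non-coding RNA genes, 442 had promoter H3K9ac in both lists, 342 in the stromal and 9 in the astromal list only. CRNDE, a long non-coding RNA raised in many tumours, was in the astromal list only at 33.1. NCK1-AS1 (62.1) and LIFR-AS1 (52.8), in the stromal list only, share their promoters with the coding genes NCK1 and LIFR.

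Proteasome, ribosomal protein and translation factor genes had H3K9ac at most members in both settings. Other families of protein turnover had it at fewer. Of 184 genes of ubiquitin conjugation and removal, 73 were in both lists, near the 71.0 from their levels. Of their stromal promoters 58.9% were also astromal. Of 84 chaperone genes, 40 were in both, beside 40.1 from their levels, and 65.6% of their stromal promoters were also astromal. Over all coding genes, 53.2% of stromal promoters were also astromal, a lower share than in either family. Among 48 proteasome genes, 39 were in both lists and 5 stromal only (88.6%), where the shares of all genes in the same level bins would give 31.0 in both. PSMB10, an immunoproteasome subunit, had 40.8 astromal and 60.8 stromal, and PSMC1, an ATPase of the regulatory particle, 45.9 and 43.6, whereas PSMC4, another of these ATPases, was in the stromal list only at 43.6. Of 86 cytosolic ribosomal protein genes, 53 were in both lists and 23 stromal only (69.7%), against 48.5 in both from their levels. RPL13 had 40.8 and 76.6, and RPS23 was stromal only. The 103 translation factors and tRNA synthetases had 62 in both and 32 in the stromal list only, nearly the 62.6 that their levels give. EEF1A2, the elongation factor of muscle and nerve, was stromal only at 51.5. RNA processing was similar, with 57 of 84 splicing factor genes in both lists (51.2 from their levels). Of 54 RNA helicases, 34 were in both lists and 12 stromal only (73.9%), against 28.7 in both from their levels. The helicase DDX5 had 58.6 and 76.6.

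Mitochondrial genes followed the same order, apart from the SLC25 carriers. Of 48 carrier genes, 17 were in both lists and 19 stromal only (47.2%, beside 53.2% over all genes). Their levels give 18.4 in both. Of 77 mitochondrial ribosomal protein genes, 58 were in both lists and 17 stromal only (77.3%), against 48.7 in both from their levels. Among 97 respiratory chain and ATP synthase genes, the numbers were 64 and 21 (75.3%, 58.6 from their levels). NDUFB11, of complex I, had 58.6 and 76.6, and CYC1, the cytochrome c1 subunit of complex III, was stromal only at 44.9. TOMM20, an import receptor of the outer membrane, had 40.8 and 48.9. Of 30 genes of autophagy and the lysosome, 20 were in both lists and 8 stromal only (71.4%), against 14.8 in both from their levels. ATG14, which directs autophagosome formation, had 43.3 and 47.6, and the lysosomal protease CTSD was stromal only at 27.7. In the unfolded protein and integrated stress response, 17 of 25 genes were in both lists, against 14.8 from their levels. ATF4, its central transcription factor, had 33.1 and 54.2, and XBP1 was stromal only at 42.3.

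The metabolic enzymes named here were picked from those in both lists and from those in 1 list. Whether pathways divide was therefore not tested by them. Of 30 citric acid cycle and glutamine genes, 19 were in both lists and 10 stromal only, against 14.9 in both from their levels. For 25 genes of fatty acid metabolism the numbers were 8 and 11 (10.7 from their levels). For 19 serine and one-carbon genes they were 12 and 4 (10.7 from their levels). The de novo serine enzymes PSAT1 (33.1 and 75.3) and PHGDH (33.1 and 44.9) were in both lists. MDH2, mitochondrial malate dehydrogenase, had 43.3 and 74.0, while the cytosolic NADP-linked enzymes IDH1 (31.7) and ME1 (27.7) were in the stromal list only. In lipid synthesis ACACA, acetyl-CoA carboxylase, had 33.1 and 55.5, FASN, fatty acid synthase, was stromal only at 37.0, and SCD astromal only. The iron storage gene FTH1 had 56.1 and 64.7, and its light-chain partner FTL was stromal only at 35.7.

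Of 24 WNT pathway genes, 5 were in both lists and 16 stromal only (23.8%), against 10.4 in both from their levels. The coreceptor LRP6 had 30.6 and 71.3 and the kinase CSNK1A1 48.4 and 43.6, whereas CTNNB1, which encodes beta-catenin, at 38.3, GSK3B, a kinase of its destruction complex, at 43.6, and DVL2, at 38.3, were in the stromal list only. In the RAS and MAP kinase pathway 15 of 25 genes were in both lists and 9 stromal only, near the 14.0 from their levels. NRAS had 35.7 and 60.8, and the kinase ARAF had 35.7 and 67.4. Of 26 TGF-beta and Hippo genes, 15 were in both lists, among them the kinase LATS1 (33.1 and 56.8) and the coactivator WWTR1 (30.6 and 42.3), and 7, including SMAD4 (47.6) and SMAD3 (19.8), in the stromal list only. Their levels give 10.6 in both. The interferon receptor gene IFNAR1 had 28.0 and 76.6. MYC had 33.1 and 56.8, and JUN 38.2 and 47.6.

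Among cell cycle genes, the mitosis list had 12 of 32 promoters in both lists and 16 stromal only (42.9% of its stromal promoters, beside 53.2% over all genes), against 13.5 in both from their levels. ECT2, the exchange factor of cytokinesis, had 38.2 and 75.3, and the kinesin KIF11 was stromal only at 42.3. Among cyclins, kinases and their inhibitors, 10 of 25 were in both lists and 10 stromal only, against 7.9 in both from their levels. Cyclin D1 (CCND1) was stromal only at 34.3, while CDKN1B was the sole astromal-only member.

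Genes of the matrix and of adhesion were in both lists at 9 of 39 promoters and in the stromal list only at 13 (33.3%, beside 22.9% of all coding genes). Of their stromal promoters 40.9% were also astromal, beside 53.2% over all genes. Their levels give 10.9 in both. The focal adhesion gene ZYX had 33.1 and 81.9, the integrin ITGB1 35.7 and 47.6, and CD44, the hyaluronan receptor, 28.0 and 35.7. The laminin-binding integrin ITGB4 (39.6) and the focal adhesion adaptor PXN (35.7) were stromal only. Collagen genes had few peaks, with COL5A2 (20.4 and 26.4) and COL13A1 (15.3 and 15.9) in both lists. In the stromal list only were 5 of 44 (11.4%, beside 22.9% of all coding genes), COL6A1 (38.3) among them. Of 22 insulin-like and growth factor ligand genes, VEGFA (20.4 and 43.6) was the single one in both lists, against 2.4 from their levels. In the stromal list only were 8 (36.4%, beside 22.9% of all coding genes), such as FGF2 (26.4) and EREG (25.1).

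Families that act in other tissues had few peaks. No promoter of 390 olfactory receptor genes was in a list. Of 127 developmental transcription factor genes, 11 were in both lists, FOXO3 (38.2 and 43.6) among them, against 16.7 from their levels. In the stromal list only were 27 (21.3%), near the 22.9% of all coding genes. Of 136 ion channel genes, 4 were in both lists and 15 stromal only, and for 125 interleukin, chemokine and receptor genes the numbers were 5 and 15, with IL27RA at 35.7 and 55.5. Zinc finger genes, by contrast, were frequent, 231 of 545 in both lists and 163 stromal only, close to the 234.9 from their levels. ZNF143, which binds many promoters itself, had 56.1 and 72.7. Histone acetyltransferase genes were in both lists at 12 of 19 promoters, against 9.6 from their levels. KAT5 had 35.7 and 56.8, and KAT2B, a writer of this mark, was stromal only at 27.7. The deacylase SIRT5 had 53.5 and 77.9. Of 51 lists and families with at least 10 stromal promoters, 34 had a higher share in both lists than all genes. Of the 51, 49 stayed on the same side of all genes with a window of 2.5 kb and 42 at a stricter level. No list was tested, and lists were chosen with earlier results of these data known.

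**Figure D4:**
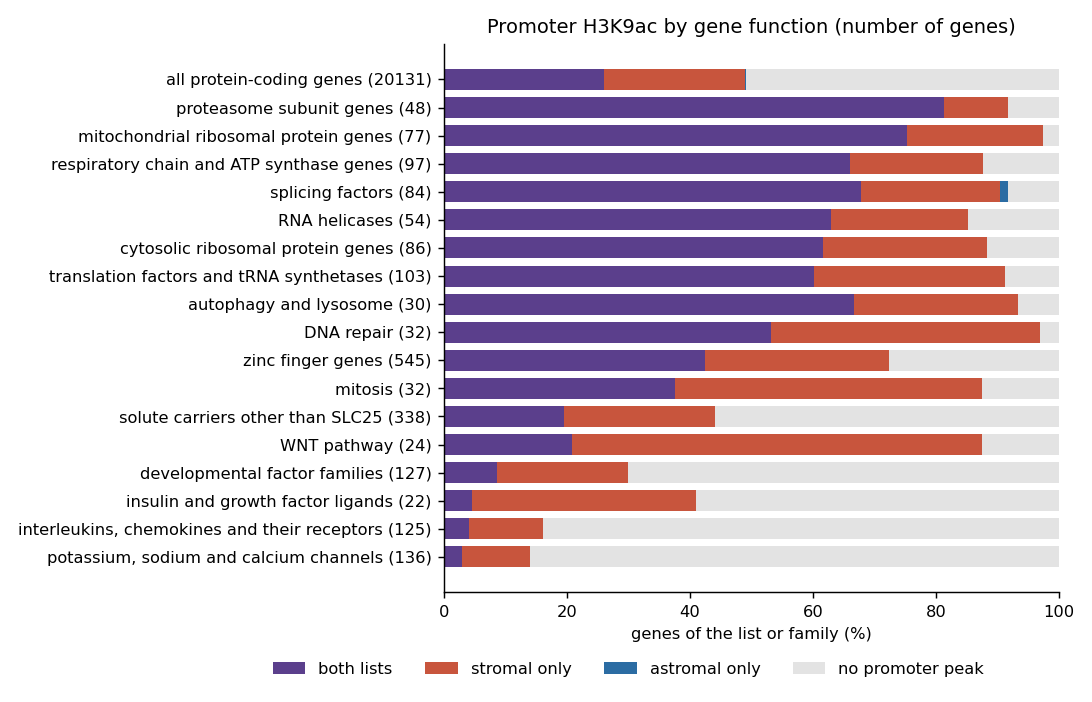
Promoter H3K9ac by gene function: share of the genes of each list or family (x, percent) whose promoter was in both lists, the stromal list only, the astromal list only or neither, with the number of genes in brackets (y). Proteasome (39 of 48) and mitochondrial ribosomal protein genes (58 of 77) are mostly in both lists, WNT pathway genes (16 of 24) mostly stromal only, and channel genes mostly without a peak.

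A second acetylation mark, H3K27ac from libraries of the same settings, was looked up at the same promoters, since it was not used to form the groups. Most promoters with H3K9ac in both lists had it, 89.4% (88.6 to 90.3) in the astromal and 86.0% in the stromal H3K27ac list. Promoters with H3K9ac in the stromal list only had H3K27ac about as often in the astromal (51.4%, 49.9 to 52.9) as in the stromal list (49.0%, 47.6 to 50.5). Of the 48 strong stromal-only promoters, 44 (91.7%, 80.0 to 97.7) had H3K27ac in the astromal and 42 (87.5%) in the stromal list. TTC1 had H3K27ac levels of 14.9 astromal and 16.3 stromal, HS2ST1 of 29.0 and 26.2, and CCDC6 of 19.3 in the astromal list and none in the stromal one. VIM (20.4), SLK (20.4) and HIST4H4 (23.9) had H3K27ac in the stromal list only, and BCOR in neither. Astromal spheroids thus had H3K27ac at most of the promoters where only the stromal H3K9ac list had a peak of high level.

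The share with astromal H3K27ac went with the H3K9ac level, from 16.8% in bin 1 to 91.7% in bin 10 of stromal-only promoters and from 38.5% to 97.3% of those in both lists. Within a bin it was higher where the astromal H3K9ac list had a peak too, at 85.1% (81.6 to 88.2) against 65.6% (61.2 to 69.7) in bin 5. Among the 37 astromal-only promoters, 20 had no H3K27ac in either list, CDKN1B, TMSB4X, IRS1, PHLDA1 and SPRY2 among them, whereas HEXIM1 had 40.9 and 41.3 and SPAG7 29.0 and 29.7.

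Promoters on some chromosomes were less often in both lists. On chromosomes 4, 13, 15 and 22, grouped after their values were seen, 341 of 1015 stromal promoters (33.6%, 30.7 to 36.6) were also astromal, against 55.4% (54.4 to 56.4) elsewhere, and the highest shares were on chromosomes 7 (66.0%) and 21 (66.3%). Levels were lower on these 4 chromosomes too, with a median of 23.8 against 33.0. At levels of 30 to 40 the shares were 57.1% (50.3 to 63.8) and 60.9% (59.0 to 62.7), with intervals that overlap. The median log2 ratio at promoters in both lists was 0.42 there and 0.70 elsewhere. SMAD3 (19.8) on chromosome 15 and THAP10 (-1.40 relative to the general shift), also on 15, are examples. Copy number of these chromosomes in this line was not measured here, and its part in the levels was not tested.

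**Figure D5:**
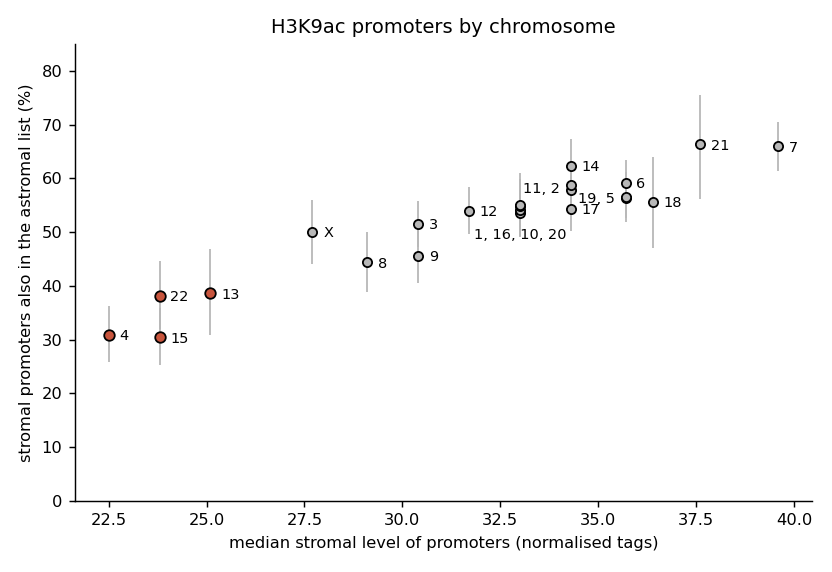
Share of stromal promoters that were also in the astromal list (y, percent, with exact 95% intervals) against the median stromal level of promoters (x, normalised tags), 1 point per chromosome. Chromosomes 4, 13, 15 and 22 (red) lie at the lower left, with 30.4% to 38.6%, and chromosomes 7 and 21 at the upper right.

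Base composition hardly separated the groups. RefSeq promoter windows matched 84.9% of genes in both lists and 81.3% of stromal-only genes. Their median GC content was 64.7% and 66.3%, the observed over expected CpG ratio was 0.85 and 0.82, and a ratio of at least 0.6 was found in 83.9% and 77.7% of windows. Genes with peaks nearby but none at the promoter differed, at a CpG ratio of 0.52. Of the motifs spelled out above, the ETS letters were present in 18.8% (17.8 to 19.7) of the 250-base windows of promoters in both lists and in 12.4% (11.6 to 13.3) of those in the stromal list only. For the 48 strong stromal-only promoters they were in 4 of 60 windows (6.67%, 1.85 to 16.2), and in none of the windows of TTC1, HS2ST1 and MLLT6 printed above. These 60 windows came from 40 genes. A gene can have several windows, which are not independent, so the intervals of window shares can be too narrow. Within level bins the ETS difference was uneven, at 18.0% against 10.3% in bin 3, 16.1% against 16.9% in bin 5, 20.6% against 11.6% in bin 7 and 20.2% against 17.0% in bin 9. GC boxes (65.2% and 67.3%), CCAAT boxes (17.0% and 17.9%), E-boxes (8.71% and 8.75%) and AP-1 letters (2.59% and 2.72%) were about as frequent in both groups. YY1 letters, which lie mostly just past the start site, were in 2.51% and 1.31% of these windows. By level the YY1 shares were 1.61% against 0.367% in bin 3 and 2.5% against 1.36% in bin 5. They were 2.12% against 3.56% in bin 7 and 2.84% against 3.51% in bin 9, on 12 and 6 stromal-only windows with the letters. In windows of 300 bases, 50 of them past the start site, the YY1 shares were 7.06% and 3.53%. There bin 7 had 7.49% against 6.82% and bin 9 had 8.14% against 7.60%. The direction in the upper bins thus depended on the window. The NRF1 core was in 5.23% (4.69 to 5.80) and 3.86% (3.37 to 4.41), and the CRE in 3.04% (2.64 to 3.50) and 2.26% (1.88 to 2.69). By level the NRF1 shares were 4.56% against 3.18% in bin 3 and 5.37% against 4.24% in bin 5. They were 4.49% against 5.64% in bin 7 and 5.11% against 5.85% in bin 9. The CRE shares were 2.68% against 2.57% in bin 3 and 1.79% against 2.03% in bin 5. They were 3.00% against 3.86% in bin 7 and 3.31% against 0.585% in bin 9, so neither motif kept 1 direction. TATA letters, present at HEXIM1, were in 7 of 52 astromal-only windows (13.5%, 5.59 to 25.8), against 5.12% for promoters in both lists.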

How the data were processed

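The submitters' processing notes name CASAVA 1.8.2, Bowtie, HOMER and the build hg19. Each peak list is of 1 library, per the labels. HOMER annotated the H3K9ac peaks, per the file headers. Thresholds for calling them were not given in the sources used here. The H3K27ac lists were called with HOMER against an input library, per the file headers. The deposited level of a peak is a signal, tags that the authors normalised to 10000000 tags of the library. Its steps are even and give the worth of 1 tag (2.549 astromal, 1.321 stromal). Every value was within 0.0365 tag of a whole tag. This gave tag counts and the depths. The deposited fraction of tags in focus had a median of 0.714 astromal and 0.692 stromal and entered no comparison. The deposited signed distance to the nearest TSS was used as the authors gave it. There were 0 per-sample columns without a sample.

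Start sites were rebuilt in hg19 from peak centres and distances. Of 14953 transcripts, 1028 of unknown strand kept both positions, 292 were left out and 3 conflicted. The 10640 coding genes placed are those with an H3K9ac peak nearest to them, of 20052 in the RefSeq table used for names. An overlap of 1 bp or more made peaks shared (bedtools 2.31.1). Log2 ratios were centred on their median, with exact conditional binomial intervals, and shares had Clopper-Pearson intervals, both at 95% (Python 3.11.15, scipy 1.17.1). Ties at the edges of level bins were broken by gene order. The ratio script was tested on simulated data.

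Genes were named by rule: the 15 promoters highest by the worse rank of both lists, the 15 highest in the stromal list only, the 10 highest in the astromal list only, the extreme ratios at 20 tags or more in each list, and up to 4 members per list, with the 5 strongest distant peaks of each kind. Members outside this rule, such as those of the 48 below the first 15 and the called promoters, were named after their values were seen. The members, gene lists and families were chosen with earlier results of these data known. Promoter sequences are from RefSeq (GRCh38.p14), matched by symbol, and no coordinates were converted. Alternatives covered the overlap, window, level minimum, thinning, ranking and ratio. The input libraries are not analysed here, and some named items are not reported here.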

Additional observations from a re-analysis of the deposited data

How the results depend on the processing

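No paired analysis was possible because each setting had 1 library, and no result had a replicate to leave out. Of 61 alternatives to the main counts and shares, 22 left the value within its counting interval, or a count within 1.5 times, and the cause of the other moves was not tested. Of 226 alternatives to the centred ratios of single genes, 220 did so. Shared peaks became 56.3% of astromal and 19.8% of stromal peaks at 50% overlap, 93.6% and 34.4% with centres within 500 bp, and 74.1% and 31.7% at a level of at least 17.8. Promoters in both lists numbered 923 with a 200 bp window, which gave 2343 stromal only and 602 astromal only. The astromal-only number was 21 at 2.5 kb, 95 with the deposited nearest gene, 78 at the stricter level and 92 with stromal tags thinned. The share of the highest stromal promoters also in the astromal list was 96.6% in the top 5% (17 without), 90.7% in the top 20% (184 without), 93.0% ranked by sum and 92.9% thinned. The median log2 ratio was 1.02 with sums, 0.64 over the highest overlapping pair, 0.39 with at least 20 tags in each list, 0.74 with 20 tags in 1 list or both, and 0.64 with 1 peak in each list. Higher and lower promoters numbered 203 and 218 with sums, 739 and 1 without centring, 0 and 0 with 20 tags in each list, and 3 and 8 with 1 peak in each list, and 20 were lower with 20 tags in 1 list or both. Sums turned the direction of CDT1 (0.07) and SUV39H2 (-0.24), and kept 7 of the 11 higher and 17 of the 35 lower calls. At 2.5 kb, 52.9% of promoters had more stromal peaks, H3K27ac was at 90.6% (astromal) and 88.0% (stromal) of promoters in both lists, and at 52.9% (astromal) of stromal-only ones. With at least 29 tags, 4.74% of shared and 5.85% of stromal-only peaks were over 10 kb away. Thinning of the ranked levels, 20 tags in 1 list or both, and 1 peak in each list were chosen after seeing the data. Depth limits the astromal side most, where the median peak held 9 tags.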
